A study of Saccharomyces cerevisiae Vin13 with 18 samples.

Results

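The comparison described here sets vials on day 5 of a wine fermentation against vials on day 2, and rests on 6 of the 18 arrays of the study, 3 per day, chosen by the vessel and the day that their labels give. The strain was VIN13, a wine yeast (Saccharomyces cerevisiae), fermenting Chardonnay must, the juice of that grape, at 20 °C. The vials held 80 ml and were microaerobic, and the study's other vessel was a commercial tank of 300 L. Vials and tanks were both started at an optical density (OD600) of 0.1. The groups used are vials on day 5, vials on day 2 and vials on day 10, with tanks of the same days beside them, each with 3 biological replicates. They differ in vessel and day, and the labels name no difference in genotype or added agent. Per the study's design text, day 2 fell in exponential growth, day 5 in early and day 10 in late stationary phase, so the question is how the RNA of the cells changed as growth ended in the small vessel.

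In must, yeast ferments glucose and fructose to ethanol while it grows, and growth usually stops before the sugar does, when nitrogen, sterols or another nutrient runs short. Glucose represses genes for other carbon sources and for respiration through the repressor Mig1 and the kinase Snf1. Sterol and heme synthesis need molecular oxygen, so a wine fermentation also leads the cells into a state in which hypoxic genes, normally held down by the repressor Rox1, matter. Rising ethanol and a lack of nutrients call on chaperones and on the general stress response.

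The arrays were of an Affymetrix design that also carries probe sets for a second species, the fission yeast S. pombe. Values below are log2 of the deposited RMA intensities, called log2 signal, so a difference of 1 is a factor of 2. An equal mass of RNA was labelled for each array, so a value is relative to the rest of the RNA on its array, and less RNA of all kinds per cell cannot be told apart from no change. The level taken as background was a log2 signal of 4.40, below which 95% of the S. pombe probe sets lie by their mean. Of the 5449 budding yeast genes, 5370 to 5387 exceeded it on each of the 6 arrays. The lowest correlation across genes between replicates was 0.990 on day 5 and 0.995 on day 2, and the median SD of a gene was 0.136 on day 5 and 0.083 on day 2. One array outside the comparison, tank day 10 replicate 2, stood apart from its group. It enters the test only through the spread that all groups share. Control probe sets at the 3′ end of a transcript exceeded those at its 5′ end, a measure that grows as RNA or cDNA gets shorter, by 1.46 ± 0.07 on day 5 and 1.00 ± 0.02 on day 2 (mean log2 difference over the controls, SD, n = 3). Single controls did not move alike. URA3 had 1.02 on day 5 and 0.08 on day 2, WBP1 2.34 and 1.39, EAF5 2.63 and 1.58, SRB4 3.7 and 2.7, and RIP1 -0.17 and -0.42. Lower on day 5 were SPT15, with 1.51 on day 5 and 1.88 on day 2, ACT1, with 0.61 and 0.72, and slightly TDH1, with 0.04 and 0.06. The part of this difference in the results was not tested beyond gene length, taken as the gene's span on the genome with any intron. The median change was -0.13 for 899 genes shorter than 600 nt and -0.16 for 3685 genes of at least 900 nt.

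By day 5 the vials had gained RNA of chaperone genes, of activators of alternative carbon use and of several permeases, relative to day 2, and had lost RNA of sterol synthesis, ribosome assembly and respiration. At a Benjamini-Hochberg adjusted p under 0.05 in limma, 3684 of the 5449 genes were called, which is 67.6% of them. Of these, 1442 genes were higher on day 5 (26.5% of those tested) and 2242 were lower (41.1%). A change of at least 2-fold was found in 470 genes that rose (8.63%) and 665 that fell (12.2%), and a change of at least 4-fold in 87 and 56 genes. The values of the 2 days did not overlap for 4191 genes (76.9%). Counts of a gene group below are to be read against these shares, and its median against the median of all genes, which was -0.16. With tank day 10 replicate 2 left out of the fit, 3885 genes were called.

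The largest rise among called genes with a standard name was in URN1 (YPR152C), which encodes a protein associated with the spliceosome. Its log2 signal was 12.29, 12.57 and 12.81 on the day 5 arrays and 7.97, 8.03 and 8.15 on the day 2 arrays. All day 5 values lay more than 4 log2 units above the highest day 2 value, a 22.7-fold difference (log2 difference 4.51, SE 0.13, limma adjusted p = 1.06e-13). GIT1 (YCR098C), the permease for glycerophosphoinositol, came next, with 13.13, 12.77 and 13.06 on day 5 and 8.62, 8.99 and 8.51 on day 2. The day 5 values again stood far above those of day 2, with no overlap (19.4-fold higher, log2 difference 4.28, SE 0.14, limma adjusted p = 7e-13). The J-domain chaperone gene APJ1 (YNL077W) had 13.83, 13.92 and 14.03 on day 5 and 9.92, 9.97 and 10.06 on day 2. Replicates of a day differed by little here, and the 15.4-fold rise was many times that spread. The next rises were in GAC1 (YOR178C, 10.4-fold), which targets the phosphatase Glc7 to glycogen synthase, ISF1 (YMR081C, 10.4-fold) and ADR1 (YDR216W, 10.2-fold), an activator of glucose-repressed genes. RDH54 (YBR073W), a DNA translocase of recombinational repair, was 9.95-fold higher. ZPS1 (YOL154W), a cell surface protein known from low zinc, was 9.25-fold higher, IRC8 (YJL051W) 9.01-fold and the essential J-domain chaperone gene SIS1 (YNL007C) 8.89-fold.

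CYB5 (YNL111C) fell most. It encodes cytochrome b5, which passes electrons to enzymes of sterol and sphingolipid synthesis, and had 11.54, 11.02 and 11.08 on day 5 and 14.54, 14.49 and 14.41 on day 2. No day 5 array came near the day 2 values (9.63-fold lower, log2 difference -3.27, SE 0.19, limma adjusted p = 3.76e-10). TPA1 (YER049W), a dioxygenase that hydroxylates a ribosomal protein, had 9.67, 9.39 and 9.35 on day 5 and 12.63, 12.63 and 12.75 on day 2. This was 9.23-fold lower, again with the groups far apart. MSC7 (YHR039C), related in sequence to aldehyde dehydrogenases, was 8.15-fold lower, and the high-affinity copper transporter gene CTR3 (YLR411W) was 7.08-fold lower. ROX1 (YPR065W), the heme-dependent repressor of hypoxic genes, was 6.84-fold lower. PMA2 (YPL036W), a plasma membrane proton pump close in sequence to PMA1, was 6.6-fold lower, and its day 5 values of 8.30, 9.57 and 8.99 were spread more widely than those of the other genes named here. The biotin transporter gene VHT1 (YGR065C) was 6.34-fold lower, RRG1 (YDR065W), needed for respiratory growth, 6.09-fold, ERG8 (YMR220W), the phosphomevalonate kinase, 6.04-fold and ECM13 (YBL043W) 6.01-fold.

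**Figure D1:**
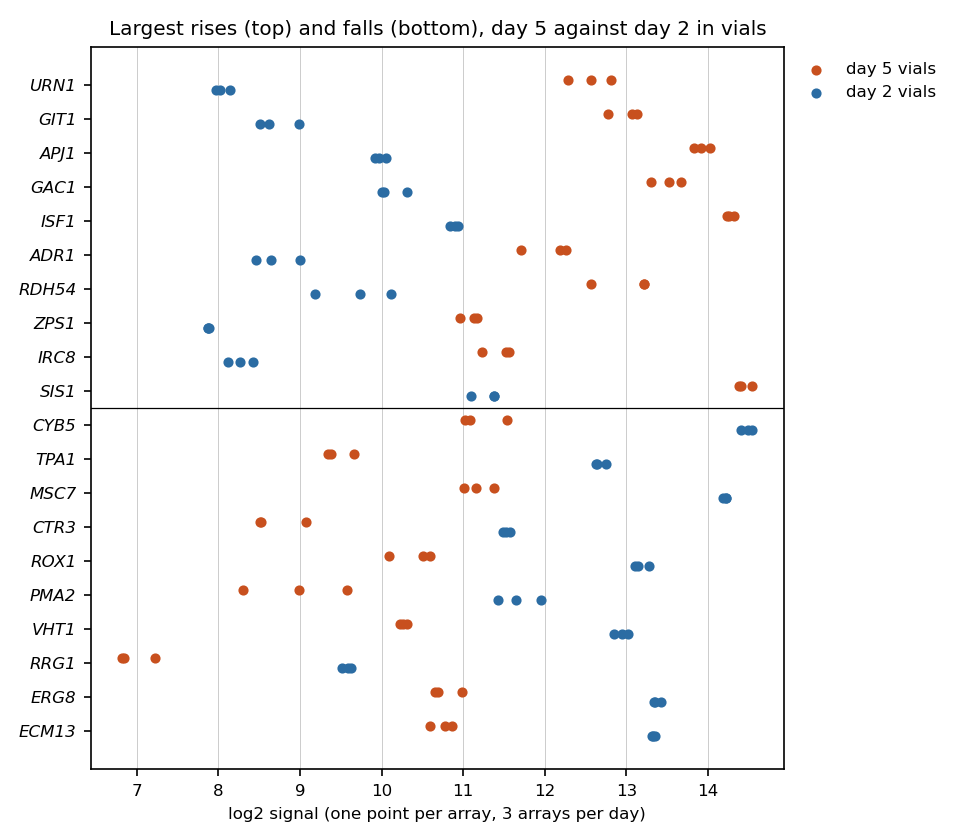
Log2 signal (horizontal axis) of the 10 genes that rose most and the 10 that fell most among called genes with a standard name, one point per array, with the 3 day 5 vials in orange and the 3 day 2 vials in blue. In each gene the 2 days are separated by a gap without overlap, which the choice of genes required, and the day 5 points of PMA2 are the most spread of those shown.

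Genes were then taken in 42 lists of known function, with 9 to 127 measured members each, and each list was described by its number of called members and its median. Ergosterol synthesis had the lowest median (-1.56) and the heat shock and chaperone list the highest (1.06).

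**Figure D2:**
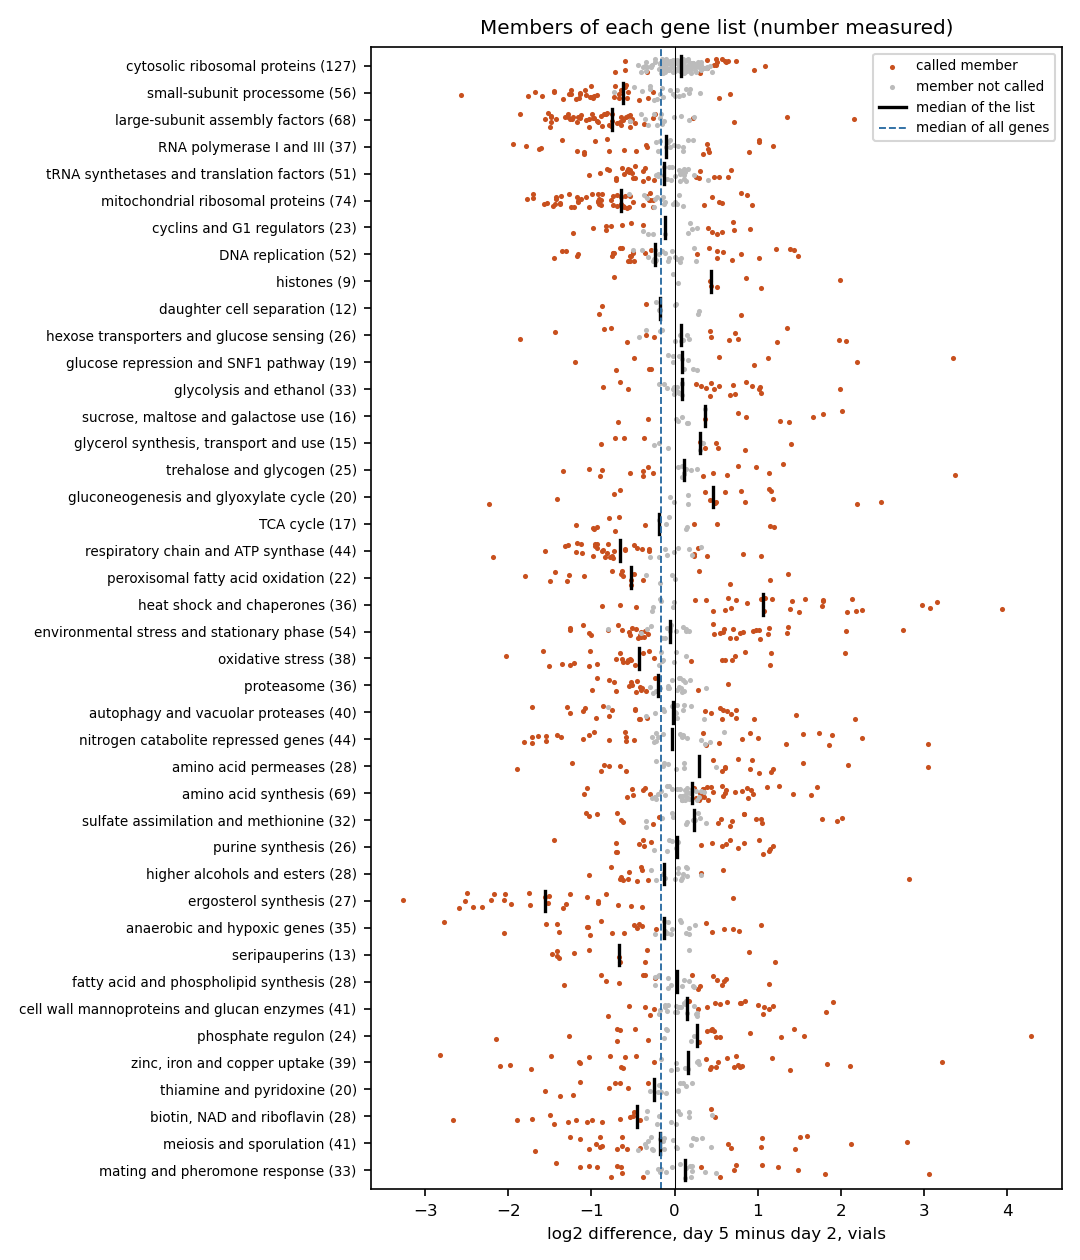
Log2 difference, day 5 minus day 2 in vials (horizontal axis), of every measured member of 42 gene lists, with called members in orange, members not called in grey, the median of a list as a black bar and the median of all genes (-0.16) as a dashed line. Ergosterol synthesis lies left of nearly all other lists and heat shock right of them, while many lists hold members on both sides of 0.

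Heat shock and chaperone genes rose on day 5. Of 36 measured members, 27 were higher, 3 were lower and 6 did not pass the test; the median change was 1.06 (between 1.00 and 1.21 over all alternatives), and 19 rose at least 2-fold. The median member had a log2 signal between 13.80 and 13.86 on the day 5 arrays and between 12.14 and 12.16 on the day 2 arrays. Cochaperones led the list. Besides APJ1 and SIS1, BTN2, which takes misfolded proteins to aggregate sites, had 13.18, 13.36 and 13.16 on day 5 and 10.15, 9.92 and 10.41 on day 2. Its day 5 values were all above those of day 2 (log2 difference 3.07, SE 0.19, limma adjusted p = 6.94e-10). FES1, the nucleotide exchange factor of Hsp70, rose by 2.97 on the log2 scale. AHA1 rose by 2.25, STI1 by 2.13 and HCH1 by 2.07, all partners of Hsp90. YDJ1, a major J-domain partner of Hsp70, rose by 2.19. Of the chaperones themselves, HSP82, the inducible Hsp90, had 13.84, 13.88 and 13.89 on day 5 and 12.18, 12.28 and 12.43 on day 2, so the days were apart by far more than their spread (log2 difference 1.57, SE 0.10). SSA4, the stress-induced Hsp70, rose by 1.78, and HSP104, the disaggregase, by 0.46. HSF1, the activator of these genes, rose by 0.74. The 3 members that fell were CNS1 (-0.88) and CDC37 (-0.66), which also work with Hsp90, and HSP12 (-0.46), a membrane-stabilising protein of the general stress response. The call of CNS1 was lost without day 5 replicate 3 (log2 difference -0.75), and that of HSP12 without day 5 replicate 1 (-0.37) or 3 (-0.40), so that 1 member was lower without day 5 replicate 3.

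Ergosterol synthesis moved the other way almost as a whole. Of 27 measured genes, 26 were lower and 1 higher, with a median of -1.56 (between -1.65 and -1.39 over all alternatives), and 20 of the 26 fell at least 2-fold. The median member lay between 11.99 and 12.08 on day 5 and between 13.81 and 13.88 on day 2. The falls covered the mevalonate branch and the later sterol branch. HMG1, the HMG-CoA reductase of aerobic cells, had 11.79, 11.19 and 11.33 on day 5 and 13.93, 13.88 and 14.00 on day 2. This gene thus showed no overlap between days (log2 difference -2.50, SE 0.20, limma adjusted p = 1.74e-08), whereas HMG2, the reductase favoured with little oxygen, changed by only -0.39 (SE 0.11, limma adjusted p = 0.00372). MVD1, mevalonate pyrophosphate decarboxylase, changed by -2.52. ERG11, the lanosterol demethylase that azole drugs inhibit, changed by -0.92. The single member that rose was UPC2, an activator of sterol genes, which had 12.07, 12.30 and 12.38 on day 5 and 11.50, 11.61 and 11.54 on day 2 (log2 difference 0.70, SE 0.09). ECM22, the related activator, fell by 0.53.

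Genes known from oxygen-poor growth did not move as one. Of 35 measured members of the anaerobic and hypoxic list, 6 were higher, 16 lower and 13 not called (median -0.13). The counts were 10 higher and 15 lower after median centring of the arrays over the yeast genes, and 11 and 15 without the length trend. In that setting a curve on gene length, introns included, was fitted to each array and subtracted. The curve holds the array's overall level, so the setting also rescales the arrays. The part of length alone in its shifts was not tested. ROX1 had 10.51, 10.09 and 10.60 on day 5 and 13.14, 13.27 and 13.11 on day 2, so every day 5 value was lower by over 2 log2 units (log2 difference -2.77, limma adjusted p = 2.12e-06). Its SE of 0.34 came from the spread pooled over all groups and was larger than the spread in vials. MOT3, a repressor that acts beside Rox1 at anaerobic genes, fell by 2.05 and had 8.05, 7.84 and 8.05 on day 5 and 9.97, 10.10 and 10.02 on day 2. Both repressors were thus lower on every day 5 array. ARE2, which esterifies sterols, fell by 1.55. HAP1, the heme-responsive activator, rose by 1.04, and DAN4, a cell wall mannoprotein of anaerobic cells, by 0.77. Of 13 seripauperins, small cell wall proteins often raised in fermentation, 10 were lower and 2 higher (median -0.67). PAU7 changed by -1.47 and PAU24 by -1.42, while PAU3 rose by 1.21. The probe sets of these 3 genes carry the suffix for probes that also match other genes, so their signals may be shared with near-identical copies.

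**Figure D3:**
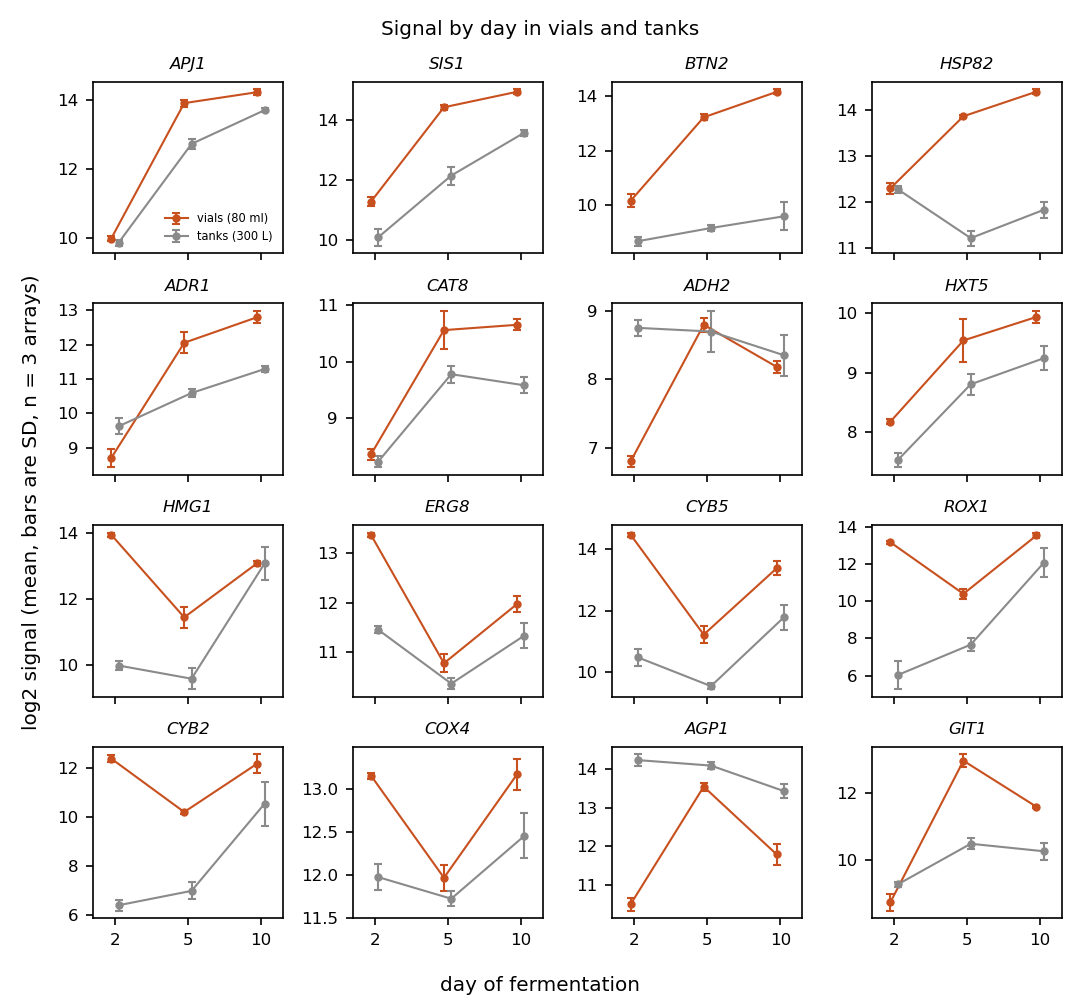
Mean log2 signal with SD bars (n = 3 arrays) of 16 genes on days 2, 5 and 10, with vials in orange and tanks in grey, and a separate vertical scale for each gene. In vials the chaperone genes in the top row are at or near their highest by day 5 or 10, whereas HMG1, ERG8, CYB5, ROX1, CYB2 and COX4 are lowest on day 5 and higher again on day 10.

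The day 5 low of several of these genes was passed by day 10. The mean log2 signal of CYB5 in vials was 14.48 on day 2, 11.21 on day 5 and 13.39 on day 10. ROX1 followed the same course, with 13.17, 10.40 and 13.54 on days 2, 5 and 10. The step from day 5 to day 10 was 2.17 in CYB5 (limma adjusted p = 7.32e-07), 3.14 in ROX1 (limma adjusted p = 7.13e-06), 1.64 in HMG1 and 1.20 in ERG8. MVD1 stayed low, with a step of 0.29 that was not called (limma adjusted p = 0.103). Both steps share the day 5 arrays. Among the genes that had risen, APJ1 and SIS1 rose further, by 0.32 and 0.52, while GIT1 changed by -1.39 and AGP1 by -1.76 after day 5.

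Activators of genes that glucose represses were among the strongest rises, while other genes of glucose signalling moved in both directions. In the list of glucose repression and the SNF1 pathway, 5 of 19 members were higher and 5 lower (median 0.09). The balance turned to 10 higher and 3 lower once the trend on gene length was removed. It was 9 and 4 after a repeated quantile normalization and 6 and 2 after median centring. Without day 5 replicate 3 the counts were 5 and 3. ADR1 had 11.71, 12.19 and 12.26 on day 5 and 8.65, 8.47 and 9.0 on day 2, with day 5 higher throughout (log2 difference 3.35, SE 0.16, limma adjusted p = 4.56e-11). CAT8, the activator of gluconeogenic genes, had 10.19, 10.65 and 10.85 on day 5 and 8.32, 8.48 and 8.30 on day 2, again without overlap (log2 difference 2.20, SE 0.14). TUP1, the corepressor, rose by 1.12, ELM1, a kinase that activates Snf1, fell by 1.20, and SNF1 itself was not called (log2 difference -0.02).

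Of 26 hexose transporter and glucose sensing genes, 9 were higher and 7 lower (median 0.07). HXT5, a transporter known from slow growth, had 9.12, 9.72 and 9.76 on day 5 and 8.14, 8.23 and 8.18 on day 2, so all day 5 values were higher (log2 difference 1.35, SE 0.15). HXT4, induced by low glucose, fell by 1.43. The low-affinity transporter HXT3 fell by 0.34, a call lost once the length trend was removed (log2 difference -0.16), and HXT1, the main low-affinity transporter at high glucose, was not called (log2 difference 0.17, limma adjusted p = 0.193). HXT7, a high-affinity transporter, rose by 0.65, on a probe set that may also read its near-identical neighbour HXT6. HXT14 was at background on all day 5 arrays and was at least 2.74-fold lower there. Of the repressors of this network, NRG1 rose by 2.06, RGT1, which represses hexose transporter genes, by 1.97, and MTH1, its partner, by 1.23. MIG1 was not called (log2 difference -0.35, limma adjusted p = 0.187) and MIG2 fell by 0.85.

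Of 33 genes of glycolysis and ethanol formation, 16 were higher and 3 lower, with a small median of 0.09. ADH2, the alcohol dehydrogenase that turns ethanol back to acetaldehyde and that Adr1 is known to activate, had 8.88, 8.69 and 8.82 on day 5 and 6.82, 6.88 and 6.71 on day 2. The 2 days were cleanly apart (log2 difference 1.99, SE 0.15, limma adjusted p = 6.13e-09). The main fermentative enzymes PDC1 (log2 difference 0.04), ADH1 (0.05) and TDH3 (-0.10) were not called. Of 16 genes for sucrose, maltose and galactose, 8 were higher and 2 lower (median 0.36; 9 and 1 without the length trend), among the higher ones the isomaltase gene IMA1 (2.02), the maltose activator MAL33 (1.78) and the maltose permease MAL31 (1.67). In the gluconeogenesis and glyoxylate list, 12 of 20 were higher and 4 lower (median 0.46). The acetate or ammonium exporter ATO3 rose by 2.48, the acetyl-CoA synthetase ACS1 by 1.19 and PCK1, the first committed enzyme of gluconeogenesis, by 1.14. FBP1, the other key enzyme of that pathway, was not called, with 6.78, 6.90 and 6.61 on day 5 and 6.64, 6.88 and 6.79 on day 2. ACS2, the acetyl-CoA synthetase of glucose-grown cells, was the member that fell most. It had 12.66, 12.25 and 12.24 on day 5 and 14.59, 14.60 and 14.65 on day 2, with a wide gap between the days (log2 difference -2.23, SE 0.11).

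Of 15 glycerol genes, 6 were higher and 4 lower, with GPD2, the glycerol-3-phosphate dehydrogenase tied to redox balance, up by 1.40 and its osmotic counterpart GPD1 down by 0.36. Of 25 trehalose and glycogen genes, 8 were higher and 9 lower, a near balance that became 13 higher and 6 lower once the length trend was removed and 10 and 7 after median centring. GAC1 led them with 13.30, 13.52 and 13.67 on day 5 and 10.03, 10.32 and 10.01 on day 2, all day 5 values being the higher. SGA1, a glucoamylase of glycogen, rose by 1.30, and TPS2, trehalose phosphatase, by 0.98. PIG1, a second targeting subunit for Glc7, fell by 1.34.

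Respiratory genes fell. Of 44 members of the respiratory chain and ATP synthase list, 29 were lower, 6 higher and 9 not called, with a median of -0.66 (between -0.69 and -0.52 over all alternatives). CYB2, the lactate dehydrogenase of mitochondria, had 10.33, 10.18 and 10.14 on day 5 and 12.34, 12.29 and 12.56 on day 2. The days did not overlap (log2 difference -2.18, SE 0.31, limma adjusted p = 1.03e-05). COX4, a subunit of cytochrome c oxidase, had 11.88, 12.15 and 11.88 on day 5 and 13.20, 13.15 and 13.13 on day 2, also without overlap (log2 difference -1.19, SE 0.13). ATP20, ATP16 and ATP5, subunits of the ATP synthase, changed by -1.55, -1.32 and -1.28, and CYC1, cytochrome c, by -1.12. The activator subunits behaved otherwise: HAP3 rose by 0.83, and HAP4, the limiting subunit, was not called (log2 difference 0.06). Of 17 TCA cycle genes, 8 were lower and 4 higher, against 41.1% lower and 26.5% higher over all genes. Their median was -0.19, against -0.16 for all genes. Without the length trend 7 were lower and 5 higher (median -0.0012). Aconitase ACO1 changed by -0.98 and IDH2, a subunit of isocitrate dehydrogenase, rose by 1.20. Peroxisomal fatty acid oxidation had 14 of 22 members lower and 4 higher (median -0.53), with ANT1, the peroxisomal ATP carrier, at -1.80 and POX1, the first oxidase of the pathway, at 1.36.

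Genes that build ribosomes fell, whereas the genes of the cytosolic ribosomal proteins mostly did not. Of 56 genes of the small-subunit processome, 34 were lower and 2 higher (median -0.62; 32 lower and 8 higher after the repeated quantile normalization, 31 and 4 without day 5 replicate 3), and of 68 large-subunit assembly factors, 50 were lower and 4 higher (median -0.75). RRP36, a processome factor, had 7.46, 7.39 and 6.95 on day 5 and 9.92, 9.81 and 9.77 on day 2, a fall on every array (log2 difference -2.56, SE 0.48, limma adjusted p = 0.000167). BFR2 changed by -1.77 and CGR1, which works on the large subunit, by -1.86. MRT4, a large-subunit assembly factor that holds the place of the stalk protein, went against its list. It had 12.95, 12.77 and 13.26 on day 5 and 10.97, 10.55 and 10.99 on day 2, every day 5 value being higher (log2 difference 2.16, SE 0.15). Of 127 cytosolic ribosomal protein genes, 109 were not called, 14 were higher and 4 lower, and the median was 0.08. These counts depended strongly on the processing: 26 were higher and 3 lower after median centring, 40 and 2 without the length trend (median 0.22) and 40 and 14 with array weights. They also depended on single arrays, with 8 higher and 10 lower without day 5 replicate 1, 32 and 1 without day 5 replicate 3, 12 and 2 without day 2 replicate 1, 8 and 7 without day 2 replicate 2, 24 and 4 without day 2 replicate 3, and 17 and 8 without tank day 10 replicate 2. RPL4B rose by 1.09 and RPL41A changed by -0.72, the widest changes in each direction. The probe set of RPL41A carries the suffix for probes that also match other genes, so its signal may be shared, and RPL41B was not measured. Mitochondrial ribosomal protein genes fell in 52 of 74 cases and rose in 7 (median -0.64), with MRP21 at -1.77 and MRPS35 at -1.71. RNA polymerase I and III genes had 8 higher and 15 lower of 37 (median -0.10), against 26.5% higher and 41.1% lower over all genes. The counts were 11 and 12 after the repeated quantile normalization (median 0.03), 9 and 14 after median centring and 9 and 12 without the length trend. UAF30, a factor for rRNA transcription, was the lowest at -1.94, and RPA14 was the highest at 1.18. Of 51 tRNA synthetase and translation factor genes, 7 were higher and 21 lower (median -0.13). After the repeated quantile normalization 11 were higher and 19 lower, after median centring 11 and 18, without the length trend 15 and 18 (median 0.01), and without day 5 replicate 1 the counts were 4 and 22.

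The cell cycle lists were mixed. Of 23 cyclins and G1 regulators, 7 were higher and 8 lower, which became 10 and 7 after a repeated quantile normalization. CLN3, the cyclin that starts G1 exit, fell by 0.38, and CLB2, the main mitotic cyclin, by 0.82, while CLN1, a late G1 cyclin, rose by 0.71. The CLN3 call was lost without day 5 replicate 3 (log2 difference -0.28), without day 2 replicate 3 (-0.28), after median centring (-0.29) and without the length trend (-0.20). DNA replication had 12 members higher and 21 lower of 52 (median -0.24), against 26.5% higher and 41.1% lower over all genes. The order turned to 17 and 15 after the repeated quantile normalization. POL2, the catalytic subunit of polymerase epsilon, rose by 1.48 and MCM3, part of the replicative helicase, by 1.44, while SLD3, an origin firing factor, fell by 1.36. Of 9 histone genes, 6 were higher and 1 lower (median 0.44). HTB2, one of the genes of histone H2B, had 12.04, 11.82 and 12.08 on day 5 and 10.04, 10.06 and 9.86 on day 2, a difference far beyond the spread (log2 difference 1.99, SE 0.11). Of 12 genes of daughter cell separation, 1 was higher, 3 lower and 8 not called, and the order turned to 3 higher and 2 lower under each of the 3 other scalings. With day 5 replicate 1 or tank day 10 replicate 2 left out, 3 of these genes were higher and 3 lower.

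Genes known from environmental stress and from stationary phase, the state that the design text gives day 5, moved in both directions. They were taken as 1 list, so its balance does not test that name. Of 54 members, 20 were higher, 19 lower and 15 not called (median -0.06), against 26.5% higher and 41.1% lower over all genes. The counts were 22 higher and 18 lower after the repeated quantile normalization, 23 and 16 after median centring (median 0.03) and 23 and 17 without the length trend (median 0.12). USV1, a regulator of stress and non-fermentable growth genes, had 11.76, 12.66 and 12.45 on day 5 and 9.49, 9.40 and 9.75 on day 2, with no overlap (log2 difference 2.75, SE 0.18). XBP1, a repressor of cyclin genes in quiescence, had 8.88, 9.40 and 9.71 on day 5 and 7.25, 7.15 and 7.42 on day 2 (log2 difference 2.06, SE 0.20). SPG5, needed for proteasome assembly in stationary phase, rose by 1.37. In contrast the catalase gene CTT1, a common reporter of the stress response, had 12.96, 13.56 and 13.21 on day 5 and 14.49, 14.53 and 14.48 on day 2. It was lower on all day 5 arrays (log2 difference -1.26, SE 0.17, limma adjusted p = 4.25e-06). MSN2, the activator of that response, fell by 0.42, and MSN4 was not called (log2 difference -0.06). Of 38 oxidative stress genes, 22 were lower and 9 higher (median -0.43), with the mitochondrial superoxide dismutase SOD2 at -1.59 and 2 glutaredoxins of the secretory pathway in opposite directions, GRX7 at -2.02 and GRX6 at 2.04. Of 36 proteasome genes, 15 were lower and 2 higher, but 11 were lower and 12 higher once the length trend was removed, and 15 and 4 without tank day 10 replicate 2. Of 40 autophagy and vacuolar protease genes, 12 were higher and 14 lower, an order that turned in part of the scalings (15 and 13 without the length trend). ATG41 rose by 2.16 and ATG1, the kinase that starts autophagy, by 1.46, while ATG12, the ubiquitin-like conjugate, fell by 1.71.

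Nitrogen genes moved in both directions. Of 44 genes under nitrogen catabolite repression, 13 were higher and 16 lower (median -0.03), an order that turned to 15 and 14 once the length trend was removed. The broad amino acid permease AGP1 had 13.45, 13.53 and 13.66 on day 5 and 10.42, 10.39 and 10.70 on day 2, without overlap (log2 difference 3.05, SE 0.13, limma adjusted p = 1.72e-11). MEP1, an ammonium permease, had 12.30, 12.59 and 12.76 on day 5 and 10.27, 10.13 and 10.49 on day 2, with all day 5 values higher (log2 difference 2.25, SE 0.21). MEP3, a second one, rose by 1.34. MEP2, the high-affinity one, was not called (log2 difference 0.36, limma adjusted p = 0.297). The largest falls were in genes for proline and allantoin use and a vacuolar permease: PUT2, of proline breakdown, by 1.81, the allantoate permease DAL5 by 1.71, allantoicase DAL2 by 1.64 and the vacuolar basic amino acid permease VBA1 by 1.71. GAP1, the general amino acid permease, fell by 0.79 and GAT1, an activator of these genes, rose by 0.91. The GAP1 call was lost without day 5 replicate 1 (log2 difference -0.82), day 5 replicate 2 (-0.71), day 2 replicate 1 (-0.81) or day 2 replicate 2 (-0.71), and without the length trend (-0.62). In the amino acid permease list, which also holds related transporters and regulators, 13 of 28 were higher and 7 lower (median 0.29), against 15 and 4 without the length trend and 11 and 4 without day 2 replicate 2. It held BAP2, for branched-chain amino acids, at 2.09 and DIP5, for glutamate and aspartate, at 1.55.

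Amino acid synthesis had 29 of 69 members higher and 8 lower (median 0.21), which became 45 and 5 without the length trend (median 0.35). It was led by ILV2 (1.71), of branched-chain synthesis, ARG3 (1.64), of arginine synthesis, and HOM3 (1.43), aspartate kinase. GCN4, the activator of these genes, was not called (log2 difference 0.13, limma adjusted p = 0.143), a measure of its RNA, whereas its protein is known to be set by translation. Sulfate assimilation and methionine genes rose in 12 of 32 cases and fell in 8, with STR3 (2.01), MET32 (1.96), an activator, and MET13 (1.78) highest. Of 26 purine genes, 12 were higher and 8 lower, with 12 and 5 after median centring or without the length trend, and AAH1, adenine deaminase, fell by 1.45. The list of higher alcohols and esters had 3 of 28 members higher and 11 lower, which became 10 and 9 once the length trend was removed. ARO10, the decarboxylase on the way to fusel alcohols, stood out among them. It had 10.71, 10.63 and 10.88 on day 5 and 7.87, 7.93 and 7.98 on day 2, with the days far apart (log2 difference 2.81, SE 0.10). The alcohol acetyltransferase ATF1, which forms acetate esters, fell by 0.41.

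Transport of phosphate, metals and vitamins held some of the widest single changes. In the phosphate regulon 12 of 24 members were higher and 7 lower (median 0.27). Besides GIT1, SPL2, a regulator of phosphate uptake, rose by 1.28, while PHM6 fell by 2.14 and the secreted phosphatase PHO5 by 0.66. Of 39 genes of zinc, iron and copper uptake, 16 were higher and 14 lower (median 0.17). CTR3 had 8.51, 9.08 and 8.53 on day 5 and 11.48, 11.53 and 11.58 on day 2, lower on every day 5 array (log2 difference -2.82, SE 0.19, limma adjusted p = 1.7e-09). CTR1, the other high-affinity copper transporter, changed by -1.49. The copper pump CCC2, which loads the iron oxidase, changed by -2.10 and the iron permease FTR1 by -1.98. The siderophore transporter ARN2 rose by 2.10 and FRE3, a reductase of siderophores, by 1.83. ZPS1 had 11.17, 10.96 and 11.13 on day 5 and 7.88, 7.88 and 7.87 on day 2, with the days far apart, while ZAP1, the activator of zinc-responsive genes, fell by 1.14.

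Vitamin genes fell more often than they rose, as did all genes tested (41.1% lower, 26.5% higher). Of 28 biotin, NAD and riboflavin genes, 15 were lower and 2 higher (median -0.45), with 14 lower and 4 higher after median centring and 14 and 6 without the length trend. VHT1 had 10.31, 10.27 and 10.23 on day 5 and 12.94, 12.85 and 13.01 on day 2, with almost no spread within a day. BIO5, a transporter of a biotin precursor, changed by -1.90, BNA4, of NAD synthesis, by -1.72 and BIO2, biotin synthase, by -1.50. Of 20 thiamine and pyridoxine genes, 9 were lower and none higher, with 1 to 4 higher under other scalings. Their median was -0.25, against -0.16 for all genes. The thiamine transporter THI7 fell by 1.55, and THI4, of thiamine synthesis, was not called (log2 difference 0.06).

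Among 41 cell wall genes, 16 were higher and 5 lower (median 0.15), against 21 and 2 after median centring and 25 and 3 without the length trend (median 0.30). The lower members numbered 3 without day 5 replicate 1 or 3 or day 2 replicate 2 or 3. Among the cell wall genes that rose were the glucanase family member SCW10 at 1.91, the chitin synthase CHS1 at 1.82 and the flocculin FLO11 at 1.06. Of 28 fatty acid and phospholipid genes, 9 were higher and 7 lower (median 0.03), which became 12 and 4 without the length trend and 5 and 6 without day 2 replicate 2. Of 41 meiosis and sporulation genes, 9 were higher and 13 lower, an order that turned under the 3 other scalings (13 and 10 after the repeated quantile normalization). OSW2, of the spore wall, rose by 2.79 and DMC1, the meiotic recombinase, by 2.12, while IME1, the initiator of meiosis, was not called (log2 difference -0.32, limma adjusted p = 0.117). Of 33 mating genes, 9 were higher and 9 lower, which became 15 and 8 after the repeated quantile normalization, 12 and 9 after median centring and 13 and 9 without the length trend. MFA1, one of the a-factor genes, had 11.64, 11.46 and 11.78 on day 5 and 8.67, 8.56 and 8.49 on day 2, with no overlap (log2 difference 3.06, SE 0.21).

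The tanks were sampled on the same days, so the change from day 2 to day 5 could be set beside that in the vials. In vials 1442 genes were higher on day 5 and 2242 lower, and in tanks 1864 (34.2%) and 2132 (39.1%). Both changes were called for 2827 genes, with the same sign in 2338 and the opposite sign in 489, and the changes had a correlation of 0.54 across the 5449 genes, which are not independent replicates. The difference between the vial change and the tank change was called in 3204 genes, 1410 in which the vial change was the higher (25.9%) and 1794 in which it was the lower (32.9%). Vial and tank changes have no arrays in common.

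Chaperones and respiratory genes were among those whose change differed between the vessels. In the heat shock list the vial change was the higher in 22 and the lower in 4 of 36 members, with medians of 1.06 in vials and 0.43 in tanks. HSP82 rose by 1.57 in vials, against a change of -1.07 in tanks (difference 2.64, SE 0.14, limma adjusted p = 1.32e-09). In the respiratory list the vial change was the lower in 33 of 44 members and the higher in 1, with medians of -0.66 in vials and 0.31 in tanks. HAP4 changed by 0.06 in vials and rose by 2.03 in tanks (difference -1.98, SE 0.12). Large-subunit assembly factors had a lower vial change in 45 of 68 members, with medians of -0.75 in vials and 0.16 in tanks, and the mitochondrial ribosomal list in 49 of 74, with medians of -0.64 and 0.07. Ergosterol genes had medians of -1.56 in vials and -0.74 in tanks, and the vial change was the lower in 22 of 27.

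For single genes the tank change could be nil or opposite. Genes were ranked here among those with a standard name that were called both in vials and in the difference between vessels. The largest positive difference was in OPI10, the yeast relative of the human Hsp70 import carrier Hikeshi, which rose by 2.26 in vials, against -1.01 in tanks (difference 3.27, SE 0.12, limma adjusted p = 2.8e-11). AGP1 changed by 3.05 in vials and by -0.14 in tanks, which was not called there. The levels behind it were 13.55 ± 0.10 on day 5 and 10.50 ± 0.17 on day 2 in vials, and 14.10 ± 0.10 on day 5 and 14.24 ± 0.15 on day 2 in tanks (SD, n = 3). ECM13 had the largest negative difference among the ranked genes, with -2.59 in vials and 3.02 in tanks (difference -5.61, SE 0.46, limma adjusted p = 8.23e-08). ROX1 had -2.77 in vials and 1.64 in tanks, and PRM5, a gene of pheromone and cell wall signalling, -1.42 in vials and 2.87 in tanks. The copper transporter gene CTR3 had -2.82 in vials and 0.67 in tanks. Day 2 levels differed as well: ROX1 had 13.17 ± 0.09 in vials and 6.03 ± 0.75 in tanks on day 2. The genes HXT5, ATG1, CHS1 and YDJ1 changed in both vessels, with differences between the vessels of 0.09, 0.30, -0.15 and 0.04 that were not called (limma adjusted p = 0.735, 0.0677, 0.355 and 0.842).

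**Figure D4:**
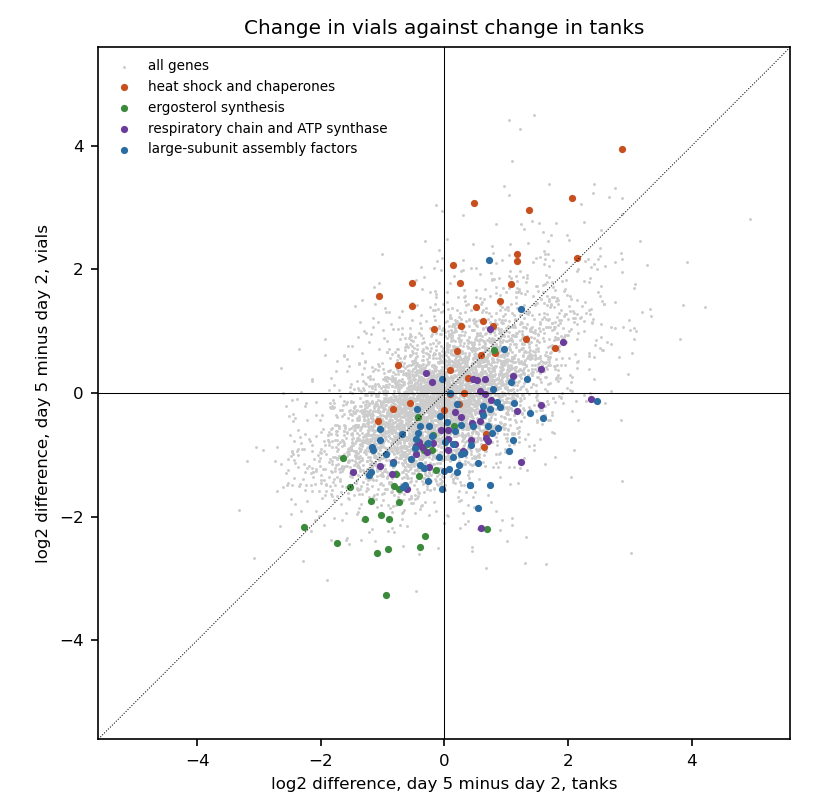
Log2 difference, day 5 minus day 2, of each of the 5449 genes in vials (vertical axis) and in tanks (horizontal axis), with 4 lists in colour and the dotted line marking equal change. Most heat shock genes lie above that line, and most ergosterol, respiratory and large-subunit assembly genes lie below it.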

How the data were processed

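Per the labels' protocols, RNA was extracted with hot phenol, 100 ng of total RNA was amplified and 7.5 µg of biotin-labelled product was hybridised to each array. Per the submitters' processing notes the authors used Affymetrix Expression Console with RMA, which corrects background, normalizes by quantiles and summarises probe sets. For both tools the version is not given in the sources used here. Intensities were deposited by the authors on a linear scale (4.79 to 39396), although the plan took them for log2 values, so log2 was taken here.

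Of 10928 probe sets, 5498 stood for 5449 S. cerevisiae genes, and for the 47 genes with several, the one with the highest mean was used. Left out were 166 controls, 1746 probe sets taken as S. pombe, 1 with several genes and 3517 with no listed gene. Gene names came from the RefSeq gene table of the R64 assembly (6477 genes), and 499 tested genes have only a systematic name. No genome coordinates or sequences are given.

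Means of 6 groups were fitted to 18 arrays with limma 3.58.1 in R 4.3.3 (12 residual degrees of freedom), with default empirical Bayes moderation, two-sided tests and Benjamini-Hochberg adjustment over all genes. The labels call the replicates biological, and p-values reflect only how these arrays varied. The number of arrays limits the precision, and the median SE of a difference was 0.125. Named genes are the 10 largest rises and falls among called genes with a standard symbol, signal above background and no overlap. Added to them are up to 4 called members per direction of a list, and regulators and main isozymes of a list. The rule also takes the 5 largest called differences from the tanks in each direction, among genes with a standard symbol called in vials. AHA1, HCH1, STI1, YDJ1, COX4, CYC1, CTR1, FLO11, MEP3 and PHO5 fall outside this rule and were chosen after their values were seen. The 42 lists, some sharing genes, hold 1506 measured of 1560 entries. Members and lists were chosen with earlier results of these data known, and 1 wrong match was removed from the ribosomal protein list afterwards. Alternatives were 2 other scalings, dim genes left out, other probe set choices, other priors and array weights. Others were fewer arrays, a replicate block and leaving out each array. A further one removed from each array a curve on gene length with introns (lowess span 0.3), which also took out the array's overall level. On simulated data with 50 of 5449 genes changed per size in the vial comparison, 66%, 92%, 100% and 100% of changes of 0.5, 1, 2 and 4 log2 units were called, with 10 false calls. Noise was drawn separately for each gene, without shifts of a whole array. In the real data 67.6% of genes were called, so these rates do not carry over directly. Tables and figures used Python 3.11.15, pandas 2.3.3 and matplotlib 3.10.9.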

Additional observations from a re-analysis of the deposited data

Results flagged for a closer look

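For 17 of the 20 genes with the largest rises and falls, limma's test of the difference between vessels called the change from day 2 to day 5 in vials apart from that in tanks. The log2 difference between the changes, vials minus tanks, was 3.06 for URN1, 3.05 for GIT1, 1.06 for APJ1, 1.68 for GAC1, 0.96 for ISF1, 2.38 for ADR1, 2.16 for ZPS1, 0.51 for IRC8 and 1.09 for SIS1 among those that rose. Among those that fell it was -2.33 for CYB5, -2.75 for TPA1, -1.13 for MSC7, -3.50 for CTR3, -4.41 for ROX1, -2.19 for RRG1, -1.51 for ERG8 and -5.61 for ECM13. The weakest of these calls was that of IRC8, at an adjusted p of 0.0268 in limma, and in RDH54, PMA2 and VHT1 the difference was not called (limma adjusted p = 0.126, 0.302 and 0.0943). The genes were chosen for a large change in vials, so part of such a difference follows from the choice. Of the 3517 probe sets with no listed gene, at least 358 lay above background on each vial array of days 5 and 2. They are in no comparison here, and which species they stand for was not tested.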

How the results depend on the processing

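Over all genes, the counts of called genes, of 2-fold and 4-fold changes and of differences from the tanks stayed within 1.5 times the reported ones under every alternative run for them. Counts within gene lists moved more: 25 of 84 such counts, in 20 of 42 lists, moved by over 1.5 times under at least 1 alternative (82 of 1428 values, 40 of them under the 3 other scalings, 13 with array weights and 22 on leaving out an array). Called genes numbered 3684 as reported and 3415 to 3612 on leaving out each vial array in turn. The replicate block gave 3643 (1431 higher, 2212 lower). Deviations of same-numbered arrays from their group means had correlations of 0.11, -0.18 and -0.27. Those of differently numbered arrays lay between -0.21 and 0.34. As each deviation is from a mean of only 3 arrays, these values cannot decide whether the numbers pair the samples. Array weights gave 4378 calls, a fit of only the 6 vial arrays 3980, and, both added after seeing the data, the 12 arrays of days 2 and 5 gave 3838 and the fit without tank day 10 replicate 2 gave 3885. Scaling moved the balance of directions: higher genes made up 39.1% of calls as reported, 47.0% after the repeated quantile normalization (1737 higher, 1958 lower), 45.5% after median centring (1656 and 1986) and 49.2% without the length trend (1821 and 1883). The median of all genes was -0.16 as reported, and -0.05, -0.07 and -0.02 under these 3 settings. Of the 337 called genes named here or chosen by the rule, none changed sign and 19 lost their call under at least 1 of 18 alternatives (70 of 6066 values). The cause of these shifts was not tested.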

Other observations

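Large changes were also found among genes outside the lists and genes without a standard name. Those named here were chosen after their values were seen. YJL047C-A had log2 signals of 12.02, 11.85 and 11.94 on day 5 and 7.47, 7.48 and 7.59 on day 2 in vials (log2 difference 4.42, SE 0.11, limma adjusted p = 2.02e-14), second only to URN1 among all genes tested. YOR032W-A was higher by 3.76 and YBR182C-A by 3.24, while YBR242W changed by -2.75. The 499 genes without a standard name held 187 that rose and 149 that fell. Over all 5449 genes tested, 1442 rose (26.5%) and 2242 fell (41.1%).

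Several genes of lipid turnover fell beside the sterol genes. YEH1, a lipase that splits sterol esters, had 11.52, 11.26 and 11.40 on day 5 and 13.95, 13.87 and 13.85 on day 2 (log2 difference -2.49, SE 0.11), against a change of 0.45 in tanks. DPL1, the lyase of sphingoid base phosphates, changed by -2.38 in vials and -1.59 in tanks, and DPP1, a lipid phosphatase of the vacuole, by -2.38 in vials and -1.35 in tanks. Among genes that rose, ZPR1, a chaperone of translation elongation factor 1A, had 13.00, 13.16 and 13.28 on day 5 and 10.22, 10.14 and 10.45 on day 2 in vials (log2 difference 2.88, SE 0.14), against 0.30 in tanks, which was not called. MND1, of meiotic recombination, rose by 2.65 and RMI1, of the complex that resolves recombination intermediates, by 2.74.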
